A study of Homo sapiens with 4 samples.

Results

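Human chromosomes 19 and 22 are the only autosomes on which the list of replication-initiation regions of RepID knockout (KO) cells held fewer regions than the list of wild-type (WT) cells. The set described here was selected on that difference, the measured numbers of WT and KO regions. It consists of every region of 3 deposited lists that lies on chromosome 19 or 22, leaving out regions that start between 20 and 24.5 Mb, or at 52 Mb or beyond, on chromosome 19. It holds 12722 of 262748 regions: 5888 of 78859 WT regions, 4609 of 159667 KO regions and 2225 of 24222 RepID-bound regions. Because the numbers of WT and KO regions chose the set, all comparisons between the WT and KO lists are descriptions without a test.

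The lists come from 3 libraries, 1 per condition. Nascent DNA strands, the short strands synthesised where replication has just begun, were sequenced from HCT116 cells, a colorectal carcinoma line, with unaltered RepID and from HCT116 cells in which RepID had been knocked out with CRISPR-Cas9, a stable puromycin-selected line with a guide directed at an exon of the gene. RepID binding was measured by ChIP-Seq in U2OS cells, an osteosarcoma line, that expressed RepID with a 3xFLAG tag, a line other than the one in which initiation was measured. A genomic control of HCT116 cells, also part of the series, was not analysed here. With 1 library per condition there is no spread between replicates, and sequencing depth cannot be read from the lists. A region missing from a list cannot be told apart from one that fell below the calling threshold.

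Replication of human chromosomes starts at many sites, the replication origins, which are licensed in G1 phase and fire in S phase. Origins crowd together in gene-rich, early-replicating chromatin and are sparse in gene-poor, late-replicating chromatin. RepID, also known as PHIP or DCAF14, is a chromatin-binding protein with bromodomains and WD40 repeats that associates with a subset of origins. Each nascent-strand region is taken here as a replication-initiation region or origin, as the authors' lists give it, and may hold more than 1 start site.

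The name gene-dense was checked against the protein-coding genes that RefSeq annotates on assembly GRCh38.p14, whose coordinates are not those of the lists. Chromosome 19 had 24.8 genes per Mb between its first and last annotated gene, the highest of the 22 autosomes. Chromosome 22 had 8.88 per Mb, the fifth highest by this measure, below chromosome 17 with 14.0. The span used for chromosome 22 took in the part before 16 Mb, where no nascent-strand region lay. Its density and rank may therefore be understated. The name therefore fits chromosome 19 better than chromosome 22. Chromosome 17 was used for comparison throughout, since it is gene-dense but had more KO than WT regions. It is itself at an extreme of the autosomes. Only chromosome 8 had a larger share of WT regions overlapped by a KO region, and no autosome had a higher median score (159) or width (3400 bp) of KO regions. On chromosomes 11 and 16, next in gene density by this measure, that share was 66.5 and 62.2%, against 72.1% on chromosome 17. Their KO-to-WT ratios were 1.98 and 1.40.

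In the set, 4609 KO regions stood against 5888 WT regions, a KO-to-WT ratio of 0.783 (95% interval 0.753 to 0.814, counting error only). The other 20 autosomes held 154177 KO and 71032 WT regions, a ratio of 2.17, and ranged from 1.40 on chromosome 16 to 3.98 on chromosome 4. Chromosome 17 had 6160 KO and 4256 WT regions, a ratio of 1.45. The shortfall was uneven within the set. The first 20 Mb of chromosome 19 held 832 KO and 1612 WT regions (ratio 0.516), the stretch from 24.5 to 52 Mb held 1485 and 1873 (0.793), and chromosome 22 held 2292 and 2403 (0.954, with an interval of 0.900 to 1.01 that includes 1). Of the 1279 regions by which the WT list exceeded the KO list, 780 lay in the first 20 Mb of chromosome 19 and 111 on chromosome 22. The direction of the count depends on how neighbouring regions are counted. When regions less than 5 kb apart were merged, the set held 2294 WT and 2960 KO clusters, a ratio of 1.29 against 2.30 on the other autosomes.

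The length covered differed more than the number. WT regions covered 29.7 Mb of the set and KO regions 14.99 Mb, a ratio of 0.505, whereas on the other autosomes KO regions covered 2.005 times the WT length. This covered ratio was 0.249 in the first 20 Mb of chromosome 19, 0.620 from 24.5 to 52 Mb and 0.631 on chromosome 22. The lowest value on any other autosome was 1.22, on chromosome 17. The X chromosome, which is not in the set, had a lower count ratio than either, with 190 KO and 1304 WT regions (0.146).

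**Figure D1:**
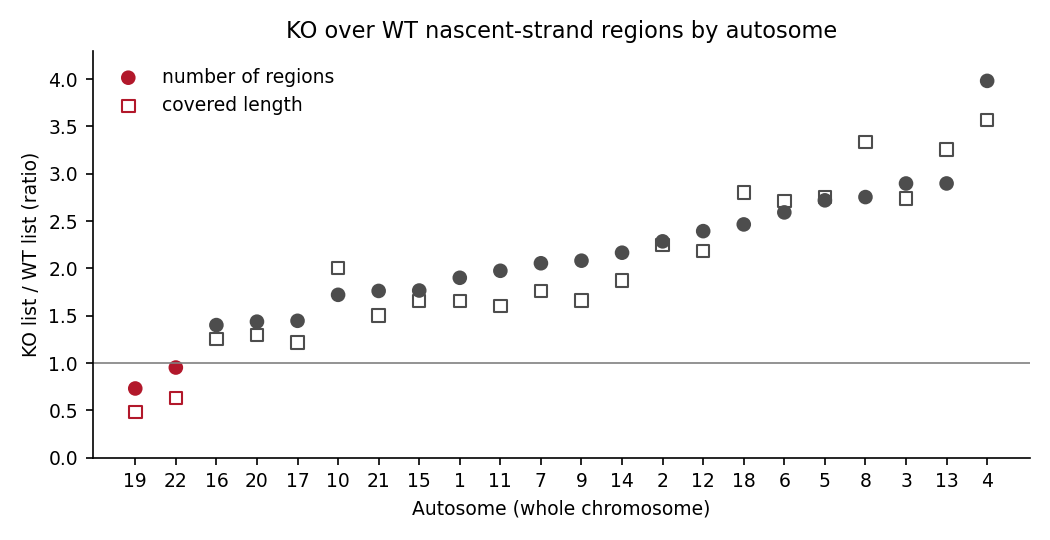
The ratio of the KO to the WT list is plotted for each whole autosome, ordered by the ratio of the numbers of regions (filled circles), with the ratio of the covered lengths as open squares; chromosomes 19 and 22 are red and the line marks a ratio of 1. Both chromosomes lie below 1 on both measures and all other autosomes lie above 1.

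Seen per Mb, the set held more WT and RepID-bound regions than the mean of the other autosomes and, on average, a similar number of KO regions. Each 1-Mb bin of the set held 71.8 WT regions on average against 26.9 on the other autosomes, which is 2.67 times as many. KO regions numbered 56.2 per bin in the set and 58.4 elsewhere, a ratio of 0.962. RepID-bound regions numbered 27.1 per bin (95% Poisson interval 26.02 to 28.29) against 8.17, or 3.32 times as many. Chromosome 17 also had many WT and RepID-bound regions, 53.2 and 21.6 per bin, and its 77 KO regions per bin exceeded the number in the set. WT regions covered 36.2% of the binned sequence against 10.2% elsewhere, and KO regions covered 18.3% against 20.4%.

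KO regions were fewer than WT regions in 56 of the 82 bins of the set (68.3%, exact 95% interval 57.1 to 78.1%). Over all autosomes this held in 10.9% of bins. It held in 19 of 20 bins of the first 20 Mb of chromosome 19, in 16 of 26 bins from 24.5 to 52 Mb and in 21 of 36 bins of chromosome 22. On chromosome 17 it held in 12 of 80 bins, and in the left-out stretches of chromosome 19 in 2 of 13. By covered length, KO was below WT in 62 of the 82 bins.

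At the same density of WT regions, bins of the set held fewer KO regions at the median than bins of other autosomes. By density of RepID-bound regions this also held, except in bins with 1 to 9 of them. Among bins with 80 to 99 WT regions, the median number of KO regions was 56 in the 27 bins of the set and 78.5 in 126 bins of other autosomes. KO regions were fewer than WT regions in 27 of those 27 bins and in 88 of those 126. Among bins with 30 or more RepID-bound regions, the median was 58 KO regions in 32 bins of the set and 72 in 130 bins elsewhere. The KO-to-WT ratio summed over these bins was 0.703 in the set and 0.9999 elsewhere. The share of WT regions that a KO region overlapped in them was 46.6% in the set and 61.0% elsewhere. In the 11 bins of the set with 1 to 9 RepID-bound regions the median was 66 KO regions, above the 58 in 1538 bins elsewhere. The ratio in these bins was 1.25, against 3.06 elsewhere.

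**Figure D2:**
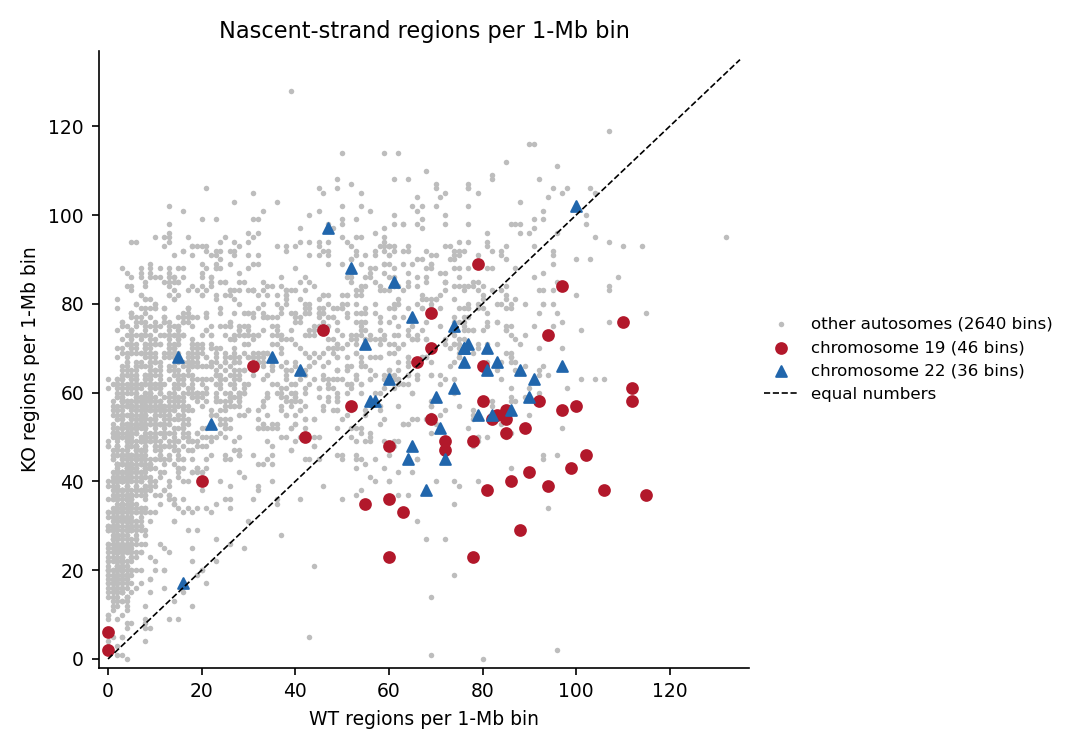
Each point is a 1-Mb bin, placed by its number of WT regions and of KO regions; grey points are the 2640 bins of other autosomes, red circles the 46 bins of chromosome 19 and blue triangles the 36 bins of chromosome 22, and the dashed line marks equal numbers. Of the 82 bins of the set, 56 lie under the line.

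Over the 82 bins of the set, the numbers of WT and KO regions had a Pearson r of 0.23 and a Spearman rho of 0.032, against 0.55 and 0.64 over the 2640 bins elsewhere. The number of RepID-bound regions had r = 0.45 and rho = 0.45 with the WT number over the same bins, and r = 0.098 and rho = 0.042 with the KO number. These are descriptions across bins, which are neighbours on 2 chromosomes and share 3 libraries. In the first 20 Mb of chromosome 19 (20 bins), r was -0.027 between WT and KO, 0.031 between RepID and WT and -0.58 between RepID and KO. The rho values in this order were -0.059, 0.062 and -0.54. From 24.5 to 52 Mb (26 bins, with 0 to 112 WT regions), r was 0.62, 0.75 and 0.34 and rho 0.33, 0.80 and 0.23. The bins from 24 to 25 and from 27 to 28 Mb gave 0 WT regions to this stretch, with 2 and 6 KO regions. On chromosome 22 (36 bins) r was 0.22, 0.51 and 0.028 and rho 0.057, 0.45 and -0.058.

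The bins with the largest excess of WT regions lay in the first 20 Mb of chromosome 19. The bin from 17 to 18 Mb held 115 WT and 37 KO regions, with 21 RepID-bound regions. The bin from 4 to 5 Mb held 106 WT and 38 KO regions, and the bin from 3 to 4 Mb held 88 and 29. In the bin from 3 to 4 Mb, WT regions covered 716 kb and KO regions 81.8 kb. The bins of chromosome 19 with the largest excess of KO regions lay further along, from 28 to 29 Mb (31 WT, 66 KO), from 44 to 45 Mb (46 and 74) and from 37 to 38 Mb (20 and 40).

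On chromosome 22 the WT excess was smaller and the KO excess larger. The bins from 45 to 46 Mb and from 49 to 50 Mb each held 31 more WT than KO regions, with 97 against 66 and 90 against 59. The bin from 48 to 49 Mb had 86 WT and 56 KO regions, with 10 RepID-bound regions. The opposite end was the neighbouring pair from 33 to 34 Mb (47 WT, 97 KO) and from 34 to 35 Mb (15 WT, 68 KO), which held 7 and 2 RepID-bound regions. The bin from 26 to 27 Mb held 52 WT and 88 KO regions.

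The balance changed at the first and the last limit of the set on chromosome 19, and not at the limit at 24.5 Mb. Just inside the first limit, the bin from 19 to 20 Mb held 72 WT and 49 KO regions, and just outside it the bin from 20 to 21 Mb held 19 and 22. Just inside the last limit, the bin from 51 to 52 Mb held 110 WT and 76 KO regions, and just outside it the bin from 52 to 53 Mb held 47 and 84. The bin from 24 to 25 Mb, of which the set takes only the second part, gave it 0 WT and 2 KO regions, and the left-out part of that bin held 10 and 20. Left-out bins could also hold more WT than KO regions, as from 54 to 55 Mb (78 and 52) and from 55 to 56 Mb (95 and 57). With the left-out stretches added, the ratio of the 2 chromosomes was 0.815.

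The ratio of KO to WT regions was lowest among wide regions, while narrow regions gave a large part of the WT excess in number. WT regions of the set had a median width of 3000 bp and a mean of 5038 bp, against a median of 2400 bp elsewhere. KO regions had a median of 2800 bp and a mean of 3252 bp, against a median of 3000 bp elsewhere. Of regions at least 20 kb wide, the set held 195 in the WT list and 6 in the KO list. Of regions between 10 and 20 kb it held 496 and 58. The ratios were 0.031 and 0.117, against 0.296 and 0.941 for the same classes elsewhere. The class between 2 and 5 kb was the only one with more KO than WT regions in the set, 2728 against 2372, and its ratio of 1.15 stood against 3.09 elsewhere.

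Regions of 10 kb or more made up 691 of the WT regions and 12.5 Mb of the WT length. In number, the WT excess was 189 regions at 20 kb or more, 438 between 10 and 20 kb and 470 between 5 and 10 kb. Among narrow regions it was 432 between 1 and 2 kb (1301 WT, 869 KO) and 106 below 1 kb (396 and 290). The 2 chromosomes differed in the middle class, where chromosome 19 had 1419 WT and 1360 KO regions of 2 to 5 kb and chromosome 22 had 953 and 1368.

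**Figure D3:**
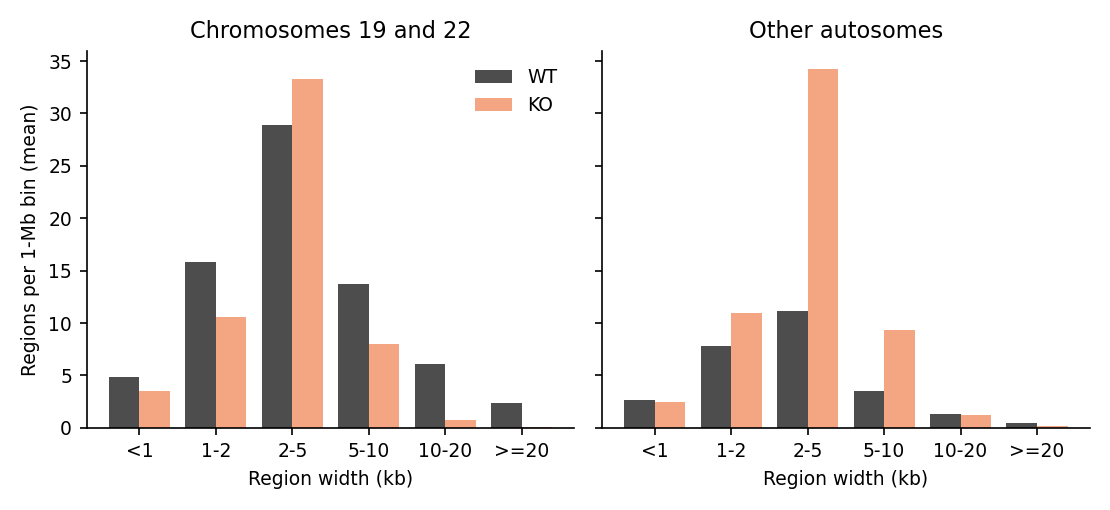
The mean number of regions per 1-Mb bin is shown by region width in kb for the WT (dark) and KO (light) lists, in the set (left) and on the other autosomes (right). In the set, WT bars exceed KO bars in every class but 2 to 5 kb; elsewhere KO bars are higher from 1 to 10 kb.

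Spacing showed the same contrast. The median gap between neighbouring WT regions was 3.4 kb in the set and 6.4 kb elsewhere, and between KO regions it was 8.0 and 7.0 kb. In the first 20 Mb of chromosome 19, the median gap was 2.6 kb in the WT list and 13.6 kb in the KO list. On chromosome 22 the medians were 3.8 and 7.0 kb. On chromosome 17 they were 3.8 and 4.0 kb, so WT regions were as closely spaced there as on chromosome 22 while KO regions were closer.

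WT regions of the set formed runs. With gaps under 5 kb bridged, a WT cluster held 2.57 regions on average and a KO cluster 1.56, against 1.79 and 1.69 elsewhere. In the first 20 Mb of chromosome 19 the averages were 3.06 and 1.34, the longest WT cluster spanned 575 kb and the longest KO cluster 45.2 kb. Bridging the gaps removed 3594 entries from the WT list of the set and 1649 from its KO list, which turned the count ratio around.

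Stretches of more than 50 kb without a KO region numbered 195 in the set and contained 837 WT regions (14.2% of them), compared with 6.71% of WT regions elsewhere. In 130 of the 195 stretches (66.7%) there were 3 or more WT regions, against 486 of 6767 elsewhere (7.18%), where WT regions are sparser. Stretches in which no read could be placed were not set apart. The first 20 Mb of chromosome 19 had 87 of the 195 stretches, which contained 455 of its WT regions (28.2%). They also contained 232 of its RepID-bound regions (45.3%), against 12.4% in KO-free stretches elsewhere. The longest stretch that held WT regions, chosen after its values were seen, ran on chromosome 19 from 3882401 to 4126800. It was 244 kb long and contained 19 WT regions that covered 170 kb, 5 of them RepID-bound, and 7 RepID-bound regions. The longest such stretch of chromosome 22, from 20459201 to 20626000, was 167 kb long and contained 8 WT regions and 0 RepID-bound regions. The next, from 21667001 to 21810800, contained 9 WT and 2 RepID-bound regions, and the one after it, from 48930801 to 49067600, contained 12 and 10.

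A WT region counted as kept if it shared at least 1 bp with a KO region. In the set 2755 of 5888 WT regions were kept (46.8%, 95% interval 45.5 to 48.1%), against 60.6% of the whole WT list and 62.9% on the other autosomes. The kept share was 35.0% in the first 20 Mb of chromosome 19, 46.9% from 24.5 to 52 Mb and 54.6% on chromosome 22. On chromosome 17 it was 72.1%. Among other autosomes the lowest was 51.3%, on chromosome 7, so chromosome 22 lies within their range and chromosome 19 below it. A KO region covered the centre of the WT region in 29.3% of cases in the set, against 44.9% of the whole list.

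Along chromosome 19, in windows of 5 Mb, the kept share was lowest from 0 to 5 Mb, where 117 of 392 WT regions were kept (29.8%), and highest from 25 to 30 Mb, where 64 of 100 were kept (64.0%). Between 40 and 45 Mb it was 57.1%, and between 45 and 50 Mb it fell to 39.4%. On chromosome 22 it ran from 61.7% between 30 and 35 Mb to 45.2% beyond 50 Mb, where 38 of 84 were kept. The window of chromosome 19 from 0 to 5 Mb also had the highest median WT score on that chromosome, 421, and the lowest median KO score, 108. Beyond 50 Mb on chromosome 22 the median WT score was 537.5 and the median KO score 115. What the score of a nascent-strand region measures is not given in the sources used here, so scores are compared only within a list.

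Kept WT regions were wider and scored higher than lost ones. In the set, kept regions spanned 3800 bp at the median and lost ones 2600 bp. Median scores were 239 for kept and 146 for the 3133 lost regions. Of the lost regions, 2445 were more than 2 kb from any KO region. A wide region has more room to be overlapped, and kept did not mean covered: KO regions covered 24.47% of all WT length in the set and 41.7% of the length of kept regions, against 44.1% and 59.6% elsewhere. Of the 195 WT regions of 20 kb or more, 151 were kept, and the median share of their length under KO regions was 12.6%.

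The lower kept share was present in every quintile of WT score. With the whole WT list cut into quintiles by score, the set kept 36.3, 40.1, 41.5, 47.5 and 57.6% from the lowest to the highest quintile. The other autosomes kept 55.2, 60.4, 61.0, 64.0 and 74.9%. The set was richer in high scores in the WT list and poorer in the KO list. Of its WT regions 18.0% fell in the top 10% of the WT list, and of its KO regions 7.36% in the top 10% of the KO list. On chromosome 17 these shares were 17.1 and 24.5%, so its WT regions resembled those of the set and its KO regions did not.

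A WT region was called RepID-bound when a RepID-bound region lay at most 2 kb away. In the set 1349 of 5888 WT regions were bound (22.9%, 95% interval 21.8 to 24.0%), against 18.7% of the whole WT list. The share was 20.8% in the first 20 Mb of chromosome 19, 21.2% from 24.5 to 52 Mb, 25.6% on chromosome 22 and 23.4% on chromosome 17. In windows of 5 Mb, the bound share on chromosome 19 was highest from 0 to 5 Mb (30.9%), the window with the lowest KO-to-WT ratio (0.380), and ran from 8% to 26.1% in the others. From 15 to 20 Mb, with the next lowest ratio (0.524), it was 15.7%. The set held 0.378 RepID-bound regions for each WT region, against 0.304 elsewhere.

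Bound and unbound WT regions of the set were kept about equally often, 646 of 1349 (47.9%) and 2109 of 4539 (46.5%), with counting intervals that overlap. On the other autosomes the shares were 57.6 and 64.1%. Within the set they were 42.7 and 41.1% on chromosome 19, and 54.1 and 54.7% on chromosome 22. The median bound region spanned 5200 bp and the median unbound one 2600 bp, with median scores of 503 and 142. Within a quintile by score the shares were lower for bound regions in the 4 lower quintiles, such as 40.6% against 49.4% in the fourth, and 58.2% against 57.1% in the highest. The centre of the WT region was covered in 22.98% of bound and 31.2% of unbound regions, and in 30.7 and 50.7% elsewhere.

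**Figure D4:**
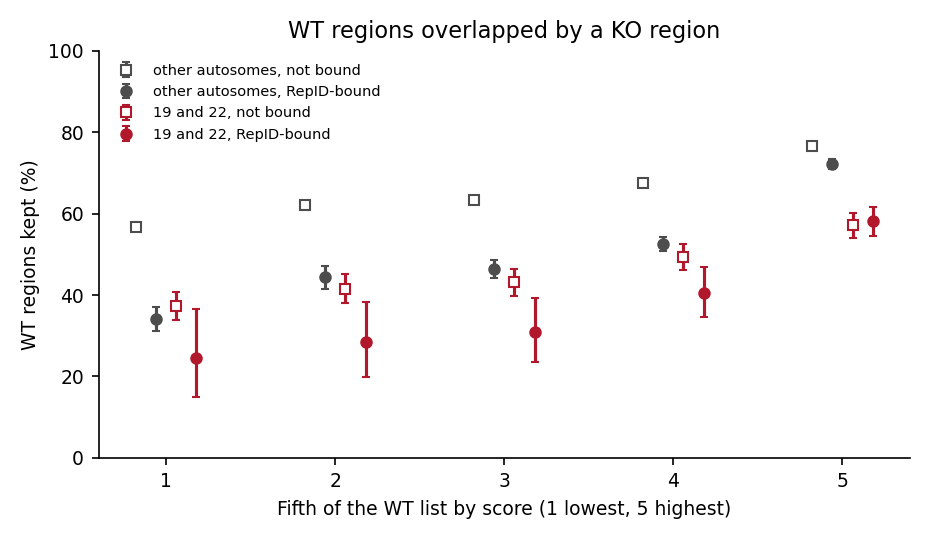
The share of WT regions overlapped by a KO region is shown by quintiles of the whole WT list by score, with RepID-bound (filled) and unbound (open) regions apart, for the set (red) and the other autosomes (grey); bars are exact 95% intervals for counting error. In each quintile both red values lie below the grey value of the same kind. On chromosome 22 alone, not drawn apart, bound regions of the lowest quintile were kept in 36.4% of cases, against 34.0% elsewhere. In the higher quintiles its bound values lie below the grey ones.

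The kept share in the set varied with the distance to the nearest RepID-bound region. It was 49.4% for the 1165 WT regions that overlapped one, 38.0% for 184 within 2 kb, 42.6% from 2 to 10 kb, 46.0% from 10 to 50 kb and 52.6% for 977 farther away. Overlapping WT regions spanned 5600 bp at the median, and those of the other classes 2400 to 2800 bp. The variation was larger on chromosome 19, from 28.4% within 2 kb to 51.1% beyond 50 kb. On chromosome 22 the share ran from 46.9% within 2 kb to 55.9% from 10 to 50 kb. On the other autosomes the farthest class was kept in 66.1% of cases, so the lower kept share of the set extended to WT regions more than 50 kb from RepID. The set lay below the other autosomes by 7.90 percentage points among WT regions that overlapped RepID, 21.5 points within 2 kb, 18.9 points from 2 to 10 kb, 16.8 points from 10 to 50 kb and 13.5 points beyond. Among overlapping WT regions the difference lay mainly on chromosome 19, with 44.7% kept against 57.3% on the other autosomes. On chromosome 22 it was 55.4%, with a counting interval that included the value of the other autosomes.

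KO coverage around the centres of unbound WT regions kept its shape in the set at a lower level. It fell from 31.2% at the centre of unbound regions to 19.2% at 15 to 20 kb away, a ratio of 1.62, and elsewhere from 50.7 to 30.6%, a ratio of 1.66. Around bound regions it fell from 22.98 to 17.01% in the set and from 30.7 to 25.4% elsewhere. The bound curve of the set peaked at the centre, while elsewhere it peaked at 32.8%, at an offset of -1000 bp. At the centres of RepID-bound regions themselves it was lower than around them, 13.6% against 16.7% at 15 to 20 kb. Elsewhere it was 20.5% at the centres, 0.821 times the value at that distance, and in the set the factor was 0.814. This dip was thus present in the set and outside it.

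**Figure D5:**
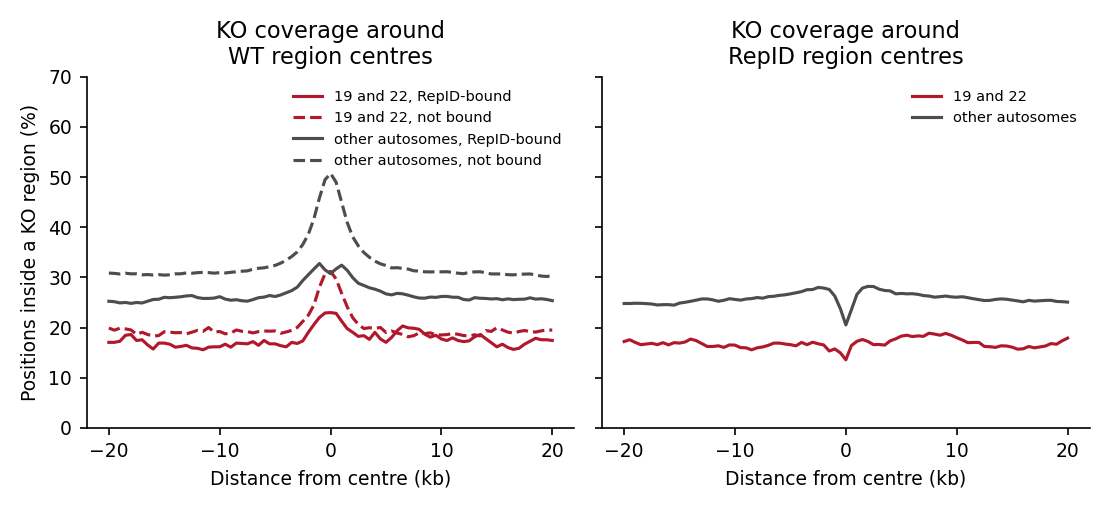
The share of positions inside a KO region is plotted against the distance in kb from the centre of WT regions (left, RepID-bound solid and unbound dashed) and of RepID-bound regions (right), for the set (red) and the other autosomes (grey). The red curves lie below the grey curves of the same kind, with a rise around WT centres and a dip at RepID centres in both. The grey curve of bound regions peaks off the centre.

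Nearly all RepID-bound regions of the set lay near a WT region, and most had no KO region nearby. Within 2 kb of a WT region were 2115 of 2225 (95.1%), against 91.1% of the whole RepID list and 96.6% on chromosome 17. WT regions are dense in the set. Even 15 to 20 kb from RepID centres they covered 51.6% of positions, against 31.8% elsewhere. Whether RepID-bound regions lay near WT regions more often than this density gives was not tested. Within 2 kb of a KO region were 873 (39.2%), against 51.8% of the whole list. The share near KO was 24.0% in the first 20 Mb of chromosome 19, 41.8% from 24.5 to 52 Mb, 44.9% on chromosome 22 and 69.7% on chromosome 17. By RepID score it ran in the set from 37.2% in the lowest quintile of the list to 39.7% in the highest.

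RepID-bound regions were not alike on the 2 chromosomes. On chromosome 22 the median width was 654.5 bp, the median MACS score was 213, and 14.7% were in the top 10% of the list. On chromosome 19 the median width was 499 bp and the median score 169, with 4.07% in the top 10%. In the first 20 Mb of chromosome 19, where KO regions were scarcest, the values were 447 bp, 152 and 2.15%.

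Most KO regions of the set lay within 2 kb of a WT region, in sequence where WT regions are dense. Of 4609, 1267 (27.5%, 95% interval 26.2 to 28.8%) lay farther away, against 63.3% of the whole KO list. WT regions covered 36.2% of the binned sequence of the set and 10.2% elsewhere, which by itself leaves less sequence away from them. Whether KO regions lay near WT regions more often than this density gives was not tested. The share was 20.3% in the first 20 Mb of chromosome 19 and 37.4% on chromosome 17. Per 1-Mb bin, the set held 40.8 KO regions near WT regions against 20.8 elsewhere, and 15.5 away from them against 37.6. The KO regions away from WT regions had a median score of 119, and those near WT regions had 129. The medians were 118 and 138 on chromosome 22, 121 and 121 on chromosome 19, and 117 and 113 in the first 20 Mb of chromosome 19. RepID lay within 2 kb of 14.7% of KO regions in the set and 6.30% elsewhere, where WT regions are sparser.

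Single regions showed the range of outcomes. The highest-scoring WT region of the set lay on chromosome 19 from 36755401 to 36804400 (hg19, score 41967), and a KO region that was itself the second highest on the chromosome covered 90.2% of it. The next, from 37756201 to 37798400 (score 32342), was covered to 95.3% by 3 KO regions and had no RepID-bound region. The third on chromosome 19, from 566001 to 668400 (score 23082), spanned 102400 bp and held 4 RepID-bound regions, and 4 KO regions with scores of at most 112 covered 7.23% of it.

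Some of the highest-scoring WT regions were not overlapped by a KO region. On chromosome 19 the highest-scoring of these among bound regions ran from 1204601 to 1281800 (score 21845) and held 12 RepID-bound regions, with the nearest KO region 600 bp away. The region from 1805401 to 1866000 (score 16844), with 2 RepID-bound regions, came next. It was followed by the region from 971401 to 1022600 (score 14492), with 1. All of them lie in the window with the lowest kept share. On chromosome 22 the first was the region from 50681401 to 50733800 (score 19610), which held 11 RepID-bound regions, 7000 bp from the nearest KO region.

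The top WT region of chromosome 22, from 19700801 to 19758800 (score 24055), held 9 RepID-bound regions, and 2 KO regions covered 7.59% of it. The highest-scoring RepID-bound regions of that chromosome, from 19863508 to 19870983 and from 28192267 to 28198858, both had a MACS score of 3100. Each overlapped a WT region, and only the first overlapped a KO region, with a score of 96. On chromosome 19 the top RepID-bound region, from 30016310 to 30020329 (score 2098), overlapped a WT region of score 2370 and lay 6871 bp from the nearest KO region.

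The highest-scoring KO region of the set was of another kind. It lay on chromosome 19 from 27731801 to 27741200 (score 30227), in a bin with 6 KO and 0 WT regions, 514400 bp from the nearest WT region. It overlapped the bin's 1 RepID-bound region, with a MACS score of 1105. Directly before it, from 24523001 to 27731800, lay a stretch of 3208.8 kb without any KO, WT or RepID-bound region. Directly after it lay another such stretch, of 132.2 kb. Whether reads could be placed in these stretches was not checked, since no hg19 genome was used. The next highest KO score on the chromosome was 3324. Whether the signal at this isolated region reflects replication initiation was not tested. The third highest KO region, from 4246001 to 4247800 (score 3322), overlapped a WT region of score 2122. On chromosome 22 the KO list had no region of such a score. Its highest, from 27438201 to 27465200, had a score of 1298, spanned 27000 bp and overlapped 4 WT regions with scores of at most 193.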

How the data were processed

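The authors deposited 1 list of enriched regions per library, giving positions and a score. Per the labels, the processing notes name the build hg19 and the programmes MACS and SICER without their roles. MACS scores belong to the RepID list. The programme and the meaning of the score deposited for the nascent-strand lists of HCT116 cells are not given in the sources used here. Nascent-strand regions lie on a grid of 200 bp.

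Regions were used as deposited, with positions counted from 1, and sorted by their start into bins of 1 Mb, including the shorter bins at the ends. Overlaps, gaps and covered lengths were computed in Python 3.11.15 (pandas 2.3.3, numpy 2.4.6, SciPy 1.17.1). These functions gave the same answers as bedtools 2.31.1 on simulated regions. Shares have exact (Clopper-Pearson) 95% intervals. Intervals cover counting error only and are too narrow, since neighbouring regions are not independent. No test was made between the lists or between the set and other autosomes. The set and the lists of named items were chosen with earlier results of these data known. Named on each chromosome were the 3 top regions by score of each list, of RepID-bound WT regions that no KO region overlapped and of WT regions with a covered centre, and the 3 bins with the largest and smallest WT excess; some are described in the text. Gene content, GC content and sequence at the regions were not analysed here, since no genome or annotation of hg19 was used. Alternatives covered merging, bin size, score thresholds, lists of equal length, the edges of the set and the distances that count as bound, kept or away.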

Additional observations from a re-analysis of the deposited data

How the results depend on the processing

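Of 28 alternatives, 1 turned a direction around, 24 moved a value beyond its counting interval and 3 did not. The KO-to-WT ratio of 0.783 became 1.29 with gaps under 5 kb merged, 0.817 with gaps under 1 kb merged, 0.596 with scores at or above each list's median, 0.365 with a KO list shortened by score to the length of the WT list (1.07 elsewhere) and 0.815 for whole chromosomes. The share of bins with fewer KO regions was 78.6% in 2-Mb bins and 92.7% with the shortened KO list. The kept share was 27.2% at a minimum of 50% of the WT length covered, 58.5% with gaps of up to 2 kb, 51.4% for higher-scoring WT regions, 27.4% with the shortened KO list and 40.5% for WT regions under 5 kb. The share with a covered centre was 19.3% with the shortened KO list and 27.3% for higher-scoring WT regions. KO regions away from WT regions made up 20.1% at over 5 kb, 35.4% without overlap and 24.0% at higher KO scores. The bound share was 19.8% for overlap, 31.7% within 5 kb, 13.7% for higher-scoring RepID regions and 30.6% for higher-scoring WT regions. RepID-bound regions per Mb numbered 18.8 after merging gaps under 1 kb and 12.7 at higher scores. The median KO width was 3000 bp after that merging and 4200 bp in the shortened KO list. The cause was not tested, beyond what each alternative changes by construction. No paired analysis was possible because each condition has 1 library. With unknown depth, a weaker library and fewer origins cannot be told apart.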
